A study of Ovis aries with 67 samples.

Results

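The genes described here are 100 of the 27054 genes counted in adipose tissue of adult sheep, namely those with the largest excess in subcutaneous (SUB) over perirenal (PER) fat of the same animal. They were found in 26 sheep (13 females and 13 males), after 5 of the 31 sheep with both depots had been left out because a library held fewer than 2000000 counts in genes. Levels were expressed as log2(CPM + 1), where CPM is a gene's count scaled by the library's total count in genes. Of the 11078 genes with a mean of at least 5 CPM in SUB, 134 had a mean paired difference (SUB minus PER) of at least 1 and were higher in SUB in at least 80% of the pairs, and the 100 with the largest difference are the members. The difference between the depots therefore chose the members, and it is given as a description without a test.

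The sheep were 2.5 years old, and each group is defined by 2 early diets and the sex. In the last 6 weeks of gestation the dams met 100% (NORM) or 50% (LOW) of their requirements for energy and protein, or received 150% of the required energy with 110% of the required protein (HIGH). The lambs were then raised, from an age of 3 days up to 6 months, on a moderate diet low in fat (CONV) or on one high in carbohydrate and fat (HCHF), and all groups afterwards shared the same hay-based low-fat diet for 2 years. Per the study, males and females were kept apart during that time. A difference between the sexes therefore cannot be told apart from one between these 2 management groups. In SUB there were 4 NORM-CONV, 4 NORM-HCHF, 7 LOW-CONV, 5 LOW-HCHF, 5 HIGH-CONV and 6 HIGH-HCHF sheep, 17 females and 14 males in all, and in PER 6, 4, 9, 6, 5 and 6 sheep, 19 females and 17 males. Libraries are named by their titles, which join the depot and the number of the sheep. NORM-CONV males had 1 SUB library, Subcutaneous1782, so contrasts that weight the groups equally lean on it.

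Subcutaneous fat lies under the skin, and perirenal fat surrounds the kidney. The depots differ in developmental origin, and the perirenal depot of newborn lambs is rich in brown adipocytes and turns into white fat as the lamb grows. White adipose tissue holds, besides adipocytes, fibroblasts and preadipocytes that build the collagen matrix, vessels, nerves and immune cells, so a level in bulk tissue is a sum over these cells. Fewer cells of a type and less RNA per cell cannot be told apart in such samples.

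Libraries held 662475 to 13232721 counts in genes in SUB and 620406 to 10478705 in PER. Of the reads assigned to a gene, to more than 1 gene or to none, 48.3% to 97.4% fell in no gene in SUB and 63.7% to 97.6% in PER. The 5 libraries with fewer than 2000000 counts (Subcutaneous1767, Subcutaneous1769, Perirenal1761, Perirenal1766 and Perirenal1807) had the highest of these shares in their depots, and the 3 in PER are all from females. The labels name no batch. The labelled tissue could not be checked against its markers, because only 11 of the 326 marker and pathway genes listed for this purpose could be tied to an identifier. Of the 100 members 2 have a known symbol, PMEL and DPT, and the others are given by their rank in the difference between depots, some with the identifier that the deposited counts use.

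The mean differences of the members ran from 1.14 to 5.04 on the log2(CPM + 1) scale, with a median of 1.48. A difference of 2 or more was found in 17 members, and 51 were below 1.5. The SD over the 26 pairs had a median of 0.98 and exceeded the mean in 3 members. In 31 members all 26 pairs were higher in SUB, and in 4 members (ranks 1, 7, 28 and 39) the depots did not overlap at all in these sheep. The matching shares of all genes were not computed. Because the rule chose on the same values, nothing is read from these counts. Mean levels of the members were 5.16 to 7147 CPM in SUB (median 39.4) and 0.458 to 2786 CPM in PER (median 9.92). The members together took 0.82% to 6.25% of the counts of a SUB library and 0.33% to 2.71% of those of a PER library. Since CPM are not scaled by gene length, levels of different members are not compared.

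**Figure D1:**
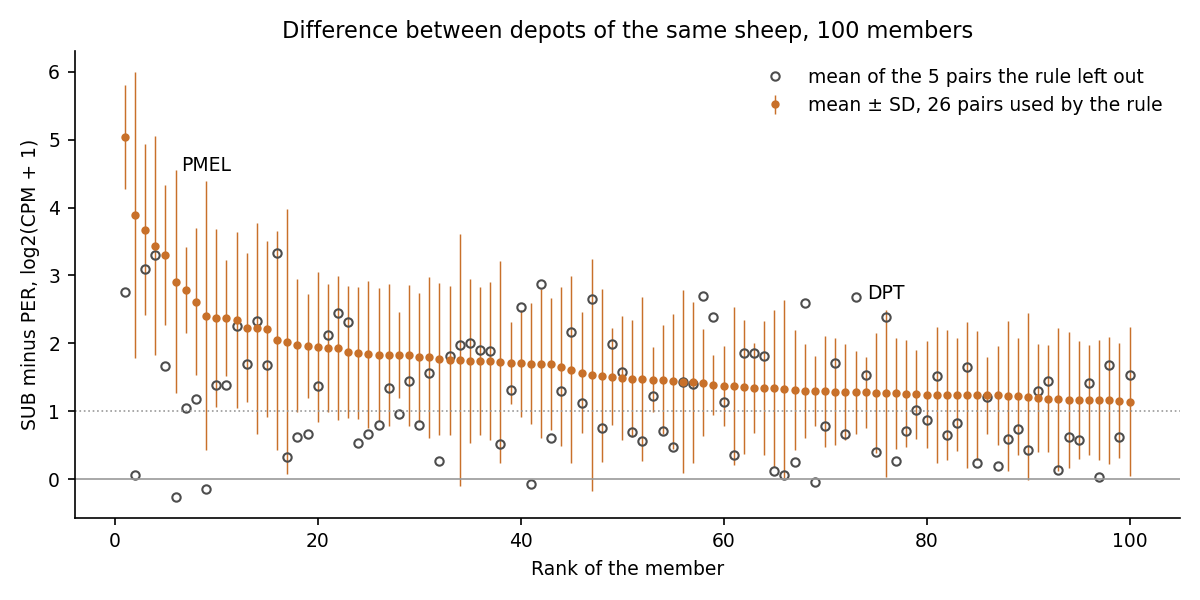
Mean difference between SUB and PER of the same sheep (y axis, log2(CPM + 1)) for the 100 members by rank (x axis). Filled points and bars are the mean ± SD of the 26 pairs that chose the members. Open points are the mean of the 5 pairs that did not, where only the sheep of Subcutaneous1769 is male, and the dotted line marks the limit of 1. PMEL, with a mean of 2.41, is at -0.14 in the other pairs.

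The member of rank 1, ENSOARG00000020376, was at 28.7 to 82.4 CPM in the 26 SUB libraries (mean 47.7) and at 0 to 5.45 CPM in the 26 PER libraries (mean 0.576). The depots stood apart in each of the 26 sheep, with a mean difference of 5.04 ± 0.77 (SD, n = 26). Over all 36 PER libraries it was at 0 in 9, where a count of 0 allows 0.286 to 0.710 CPM depending on the library (3 counts of its total, counting error only). Rank 2, ENSOARG00000010002, had means of 65.8 CPM in SUB and 1.41 CPM in PER. Its difference of 3.89 ± 2.11 (SD, n = 26) was far more variable, since SUB ranged from 2.61 to 387 CPM.

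The members of rank 3 to 8 and 10 had mean differences (log2(CPM + 1)) of 3.67, 3.44, 3.30, 2.91, 2.79, 2.61 and 2.37. Rank 3 (ENSOARG00000020386) had a mean of 198 CPM in SUB against 17.7 CPM in PER. Rank 7 had the steadiest difference of them, with an SD of 0.64 and no overlap of the depots.

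PMEL (ENSOARG00000010746), rank 9, encodes the premelanosome protein, which forms the fibrils on which pigment is laid down in melanosomes. Its mean level was 30.1 CPM in SUB and 2.49 CPM in PER, and its paired difference was 2.41 ± 1.98 (SD, n = 26), positive in 24 of 26 sheep. In females the mean difference was 0.86, and in males 3.96. DPT (ENSOARG00000009230), rank 76, encodes dermatopontin, a small protein of the extracellular matrix that binds collagen fibrils and is made by fibroblasts. It was at a mean of 278 CPM in SUB and 89.7 CPM in PER, with a difference of 1.26 ± 1.23 (SD, n = 26) that was positive in 22 sheep. Here the order of the sexes was the opposite of that of PMEL, with mean differences of 1.91 in females and 0.61 in males.

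Among the marker and pathway genes with an identifier, PMEL was the only one of the melanocyte list, DPT the only one of the fibroblast list, and DPT, SPARC and COL22A1 were those of the extracellular matrix list. SPARC and COL22A1 were no members, with differences of 0.32 and 0.66. NTN4, which encodes the basement membrane protein netrin 4, lay just outside the set at place 104, with a difference of 1.12 ± 0.53 and higher values in SUB in 25 of 26 sheep. At the limit, the 5 last members had differences of 1.16, 1.16, 1.16, 1.16 and 1.14, and the next 5 genes 1.13, 1.13, 1.13, 1.12 and 1.12, so the end of the set is not a natural gap.

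The 5 pairs left out by the rule were not used to choose the members. The sheep of Subcutaneous1769 was the only male among them, whereas the 26 pairs held 13 females and 13 males. In them 96 of the 100 members were higher in SUB on average, 57 by 1 or more, and 25 in each of the 5 sheep, with a median difference of 1.26. Of all genes at this level in SUB, 48.9% were higher on average in these pairs, with a median of -0.01. The share of all genes higher in each of the 5 sheep was not computed. The number of members higher in SUB was 91, 85, 78, 63 and 50 in the single pairs. In the same order, 40.6%, 65.8%, 49.9%, 53.7% and 52.8% of all genes at this level were higher in SUB. The last pair was the sheep of Perirenal1761, whose PER library held 722834 counts. Its median difference was 0.02 over the members and 0.10 over all genes at this level. PMEL (mean difference -0.14) and rank 6 (-0.26) were not higher in SUB on average of these pairs and rank 2 (0.06) was close to 0, whereas rank 1 (2.75), rank 4 (3.30) and DPT (2.39) were. Each of these pairs has a shallow library, so part of their values rests on few counts. In the pairs that chose the members, PMEL and rank 2 had the smaller mean difference in females, and DPT in males. The part of sex in the values of the left-out pairs was not tested.

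Sex was tested in each depot in a model with both diets and their pairwise interactions (edgeR's quasi-likelihood test, Benjamini-Hochberg adjusted p under 0.05 over all genes). In SUB, 10 of the 100 members passed, 8 higher and 2 lower in males. The background was 3.95% of the 16686 genes tested, 1.19% higher and 2.76% lower in males. At an unadjusted p under 0.05 there were 22 members, 17 of them higher in males, beside 20.1% of all genes. This reading depended on the shallow libraries. Without the 2 SUB libraries under 2000000 counts 14 members passed, but so did 21.2% of all genes. The rule also used the SUB level, so a gene high in SUB of 1 sex can enter the set through that sex. For rank 17 the SUB median was 1.46 CPM in females and 9.30 CPM in males, while the rule asked for a mean of 5 CPM. The counts of members are therefore a description.

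PMEL had the smallest p of the members in SUB. In the 17 females its level was 1.79 to 46.8 CPM with a median of 4.91, and in the 14 males 6.63 to 100.1 CPM with a median of 49.3. Besides the shallow female library Subcutaneous1767, which holds the highest female level, and the male library Subcutaneous1768 at 6.63 CPM, all females were at or below 16.0 CPM and all males at or above 16.6 CPM. The log2 fold change of males over females was 3.02 ± 0.32 (SE, adjusted p = 1.3e-06, edgeR). The symbols of PMEL and DPT come from a list the study made of genes that differ by sex in these SUB libraries, so their direction there is not independent evidence.

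Rank 88 (ENSOARG00000015118) was at 0.137 to 9.06 CPM in SUB of females (median 2.83) and at 3.56 to 28.5 CPM in males (median 11.4). Its log2 difference of males over females was 2.07 ± 0.29 (SE, adjusted p = 4.0e-05, edgeR). In the same depot rank 1 was at 15.7 to 60.4 CPM in females (median 38.4) and 37.5 to 86.7 CPM in males (median 61.0), a log2 difference of 0.73 ± 0.14 (SE, adjusted p = 0.0021, edgeR). The other 5 members higher in SUB of males were those of rank 2 (log2 difference 2.37), 6 (1.91), 17 (2.72), 52 (1.05) and 93 (0.93). In none of the members were the sexes free of overlap in SUB, and the share of all genes without overlap was not computed.

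In the opposite direction, DPT was at 46.8 to 1090.5 CPM in SUB of females (median 377) and at 22.6 to 491 CPM in males (median 140). Its log2 fold change of males over females was -1.57 ± 0.42 (SE, adjusted p = 0.029, edgeR). Rank 94 (ENSOARG00000017153) was at 25.6 to 128 CPM in females (median 58.3) and at 11.9 to 41.2 CPM in males (median 23.5), a log2 difference of -1.29 ± 0.24 (SE, adjusted p = 0.0014, edgeR). Without Subcutaneous1782, the only NORM-CONV male, 5 members passed in SUB in place of 10, beside 1.46% of all genes, and the log2 difference of PMEL was still 2.63. The call of DPT was lost without any 1 of 8 sheep, with an adjusted p of at most 0.082 (edgeR), and in the model without interactions (adjusted p = 0.12, edgeR).

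**Figure D2:**
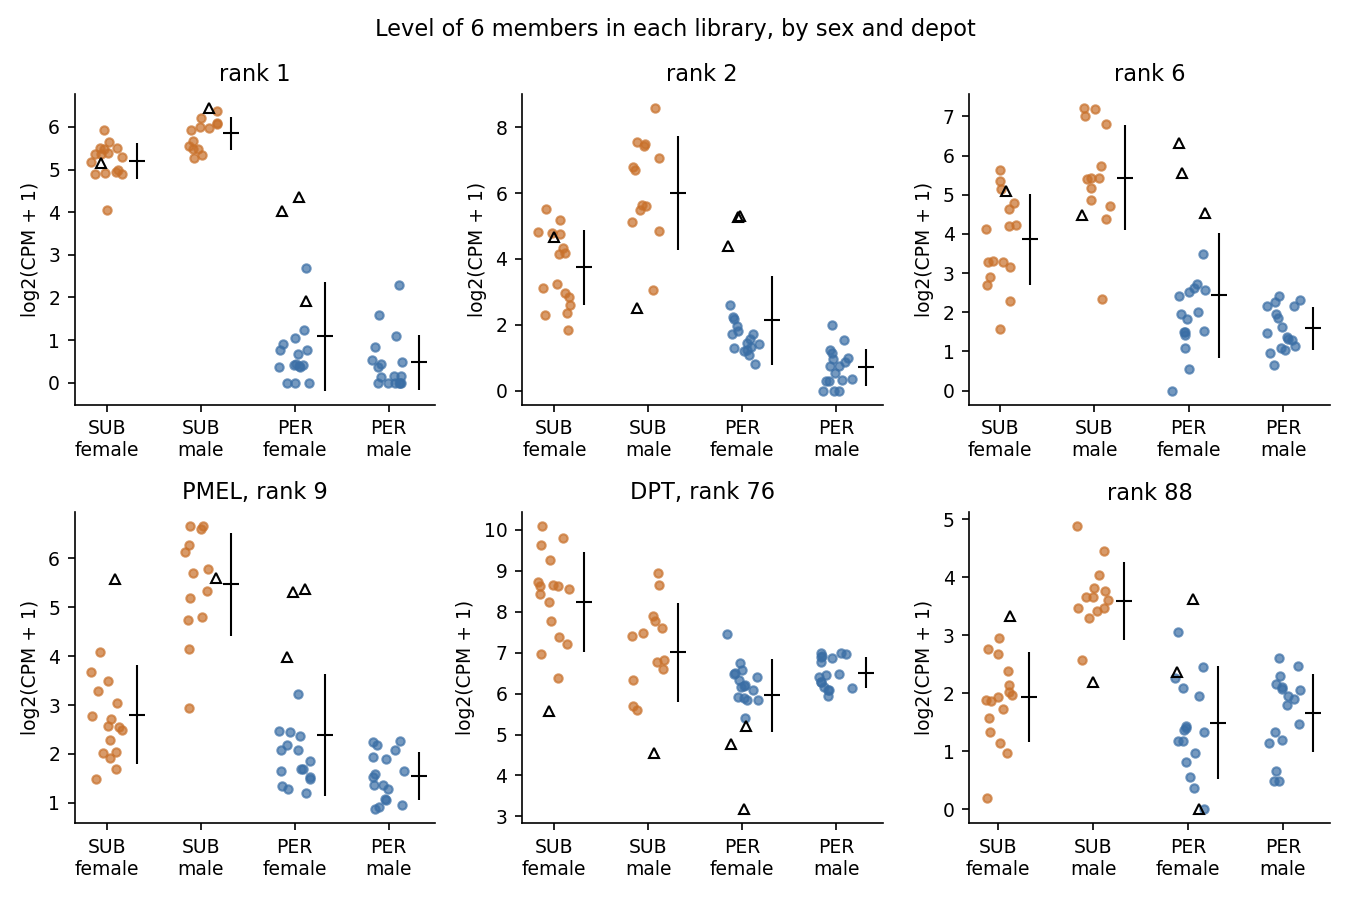
Level of 6 members in each library (y axis, log2(CPM + 1)) by depot and sex, with the mean ± SD beside the points; open triangles are libraries under 2000000 counts. In SUB the male medians of PMEL and DPT are 49.3 and 140 CPM against 4.91 and 377 CPM in females, and in PER the highest female values of PMEL, rank 2 and rank 6 are shallow libraries.

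In PER, 26 members passed for sex, 18 higher and 8 lower in males, against a background of 43.4% of 20880 genes, 19.9% higher and 23.5% lower in males, and at an unadjusted p under 0.05 there were 32 members beside 53.5% of all genes. With DESeq2's size factors the median log2 difference over all genes moved from -0.13 to -0.28, and 11 members passed as higher and 7 as lower in males, beside 13.4% and 23.0% of all genes. DESeq2 itself called 15 members higher and 13 lower, beside 15.6% and 39.6%. With the no-gene share of reads added to the model 10 members passed, 6 of them among the 26, against 7.18% of all genes. Rank 52 (ENSOARG00000013340) was at 0 to 5.53 CPM in the 19 females (median 0.946) and at 1.70 to 19.9 CPM in the 17 males (median 6.06), a log2 difference of 2.12 ± 0.31 (SE, adjusted p = 1.2e-05, edgeR). Rank 66 (ENSOARG00000004848) was at 0.723 to 37.4 CPM in females (median 6.18) and 12.1 to 56.3 CPM in males (median 32.3), a log2 difference of 2.20 ± 0.32 (SE, adjusted p = 2.7e-05, edgeR). Both were higher in males, and their calls held with the covariate.

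Rank 2 and rank 77 had the smallest p among the members lower in PER of males. Rank 2 was at 0.738 to 38.7 CPM in females (median 2.28) and at 0 to 3.00 CPM in males (median 0.662), a log2 difference of -2.08 ± 0.47 (SE, adjusted p = 0.0011, edgeR). Rank 77 (ENSOARG00000001692) was at 0.602 to 77.4 CPM in females (median 3.99) and at 0.452 to 3.81 CPM in males (median 1.20), a log2 difference of -1.66 ± 0.40 (SE, adjusted p = 0.0023, edgeR). The highest female values are those of the shallow libraries, and without these the females ended at 5.01 CPM for rank 2 and at 12.3 CPM for rank 77. In edgeR neither call held with this covariate (adjusted p = 0.17 and 0.59).

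PMEL and DPT were among the members called in PER as well, but at values close to the threshold. The log2 difference of PMEL was -0.76 ± 0.30 (SE, adjusted p = 0.043, edgeR) and that of DPT 0.61 ± 0.21 (SE, adjusted p = 0.024, edgeR), each opposite to SUB. Neither held in edgeR without the shallow libraries (adjusted p = 0.36 and 0.067), and with the covariate the difference of PMEL turned to 0.04.

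The log2 difference of males over females was also set side by side for the depots (SUB minus PER) in 1 edgeR fit of all 67 libraries. This measure reuses the values that chose the members, and a gene that is high in SUB of 1 sex can enter the set through that sex. Of the named genes, PMEL had a mean paired difference below the limit of 1 in females (0.86) and DPT in males (0.61). The values are therefore a description, and nothing is read from the 4 of 100 members past the adjusted threshold beside 0.124% of 23294 genes, or from the 19 at an unadjusted p under 0.05 beside 7.13%. The value was 3.87 ± 0.49 (SE) for PMEL and 4.52 ± 0.73 (SE) for rank 2, which had a mean paired difference of 2.26 in females and 5.52 in males. Rank 6 had a value of 2.97 ± 0.61 (SE), which became 2.50 without the shallow libraries. DPT had a value of -2.13 ± 0.45 (SE), which became -2.02 with the sheep as a block in the 31 sheep with both depots. In the fits that each left out 1 sheep, PMEL stayed between 3.52 and 4.30 and DPT between -2.43 and -1.85.

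For the early diets no member and no other gene passed in either depot in the edgeR fit, in any of the 6 contrasts (0% of 16686 genes in SUB and 0% of 20880 in PER). With DESeq2, 3 members passed in SUB for LOW vs NORM, where 6.45% of all genes did, with rank 14 (1.39) and rank 15 (1.27) higher and rank 57 (-1.78) lower in LOW on the log2 scale. Rank 57, named again below, was at 361.6 CPM in Subcutaneous1763 (NORM-HCHF) and at 142.5 CPM in Subcutaneous1802 (NORM-CONV). The median of the SUB libraries other than Subcutaneous1763 was 20.4 CPM, and the males ran from 14.8 to 133.0 CPM. Its differences without these NORM libraries are not given here. In PER 1 member passed with DESeq2 for HCHF vs CONV, rank 16 (-1.49), beside 0.235% of all genes, and none in the other contrasts. The medians of the members lay away from those of all genes in SUB. In LOW vs HIGH, with 12 and 11 sheep, the median log2 fold change of the members was 0.43, and 87 of 100 were higher in LOW, beside a median of -0.01 and 48.1% higher among all genes. At an unadjusted p under 0.05 there were 25 members, all higher in LOW, beside 2.49% of all genes in both directions. The rule used the SUB level, though not the diets. The members also varied together across sheep in SUB, as described below. Their counts in this and the other SUB contrasts are therefore not separate observations. The smallest adjusted p of a member was 0.98, so no single member can be called. Over the fits that each left out 1 SUB library, the median stayed between 0.30 and 0.53 with 78 to 89 members higher in LOW.

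The member with the smallest p in this contrast was rank 17 (ENSOARG00000004566). It was at 0 to 71.9 CPM in SUB of LOW sheep (median 8.48) and at 0.290 to 26.5 CPM in HIGH sheep (median 1.73), a log2 difference of 1.78 ± 0.57 (SE, adjusted p = 0.98, edgeR). The ranges overlapped almost fully. PMEL had a value of -0.24 ± 0.35 and DPT of 0.11 ± 0.44 (both SE), so these errors leave room for a value of 0. Whether either value differs from the median of the set was not tested.

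In HCHF vs CONV, with 15 and 16 sheep, the median log2 fold change of the members in SUB was -0.38, and 14 of 100 were higher in HCHF, beside 0.01 and 50.8% of all genes. At an unadjusted p under 0.05 there were 19 members, 18 of them lower in HCHF, beside 4.51% of all genes. Without Subcutaneous1770, a NORM-CONV female with the highest level of the set in SUB, the median was -0.17. Rank 34 (ENSOARG00000003744) had the smallest p, with 25.7 to 788 CPM in HCHF sheep (median 95.7) and 94.3 to 9836 CPM in CONV sheep (median 279), a log2 difference of -1.55 ± 0.45 (SE, adjusted p = 0.77, edgeR). The 9836 CPM was the level of Subcutaneous1772 alone, and the other 30 SUB libraries ended at 788 CPM. The log2 difference of rank 34 without Subcutaneous1772 is not given here.

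The other 4 SUB contrasts moved with single libraries as well. In LOW vs NORM the median of the members was 0.17 with 65 members higher, 0.38 without Subcutaneous1770, and 0.06 to 0.11 without Subcutaneous1759, Subcutaneous1764, Subcutaneous1782, Subcutaneous1802 or Subcutaneous1807, one at a time. In HIGH vs NORM it was -0.19 with 32 higher, 0.04 without Subcutaneous1770, and down to -0.31 without Subcutaneous1764, Subcutaneous1799 or Subcutaneous1802. In LOW-HCHF vs NORM-CONV it was -0.26 with 32 higher and 0.30 without Subcutaneous1770, while it ran from -0.48 to -0.39 without Subcutaneous1759, Subcutaneous1764, Subcutaneous1802 or Subcutaneous1807 and from -0.16 to -0.09 without Subcutaneous1775, Subcutaneous1783 or Subcutaneous1785. In HIGH-HCHF vs NORM-CONV it was -0.63 with 17 higher, and -0.06 without Subcutaneous1770. The medians of all genes in these contrasts were 0.00, 0.01, -0.01 and 0.04. The members at an unadjusted p under 0.05 numbered 14, 7, 3 and 15 in these contrasts, beside 6.96%, 3.14%, 1.32% and 1.62% of all genes. The member with the smallest p was rank 57 in LOW vs NORM (-1.57 ± 0.42, adjusted p = 0.66) and in HIGH vs NORM (-1.81 ± 0.43, adjusted p = 1.0), rank 87 in LOW-HCHF vs NORM-CONV (-0.89 ± 0.38, adjusted p = 1.0) and rank 5 in HIGH-HCHF vs NORM-CONV (-1.77 ± 0.57, adjusted p = 1.0), all as log2 differences with SE from edgeR.

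**Figure D3:**
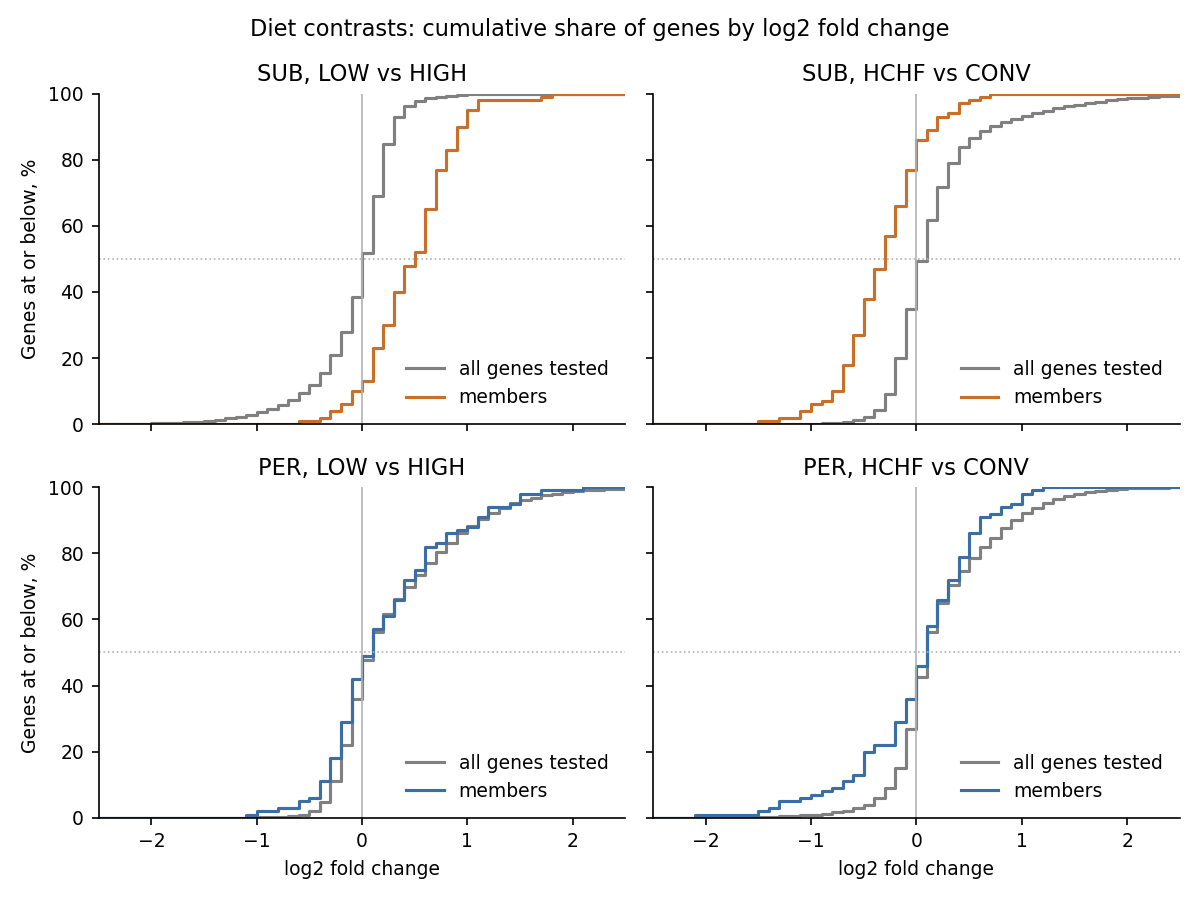
Cumulative share of genes (y axis, %) at or below a log2 fold change (x axis) for the members and for all genes tested, in the LOW vs HIGH and HCHF vs CONV contrasts of each depot. In SUB the curve of the members lies to the right of that of all genes for LOW vs HIGH (median 0.43) and to the left for HCHF vs CONV (median -0.38), and in PER the medians are 0.01 and 0.03.

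In PER, the medians of the members were 0.01 for LOW vs HIGH (51 of 100 higher) and 0.03 for HCHF vs CONV (54 higher), beside 0.02 and 0.05 for all genes. They were -0.14 for LOW vs NORM (30 higher), -0.32 for HIGH vs NORM (28 higher), -0.34 for LOW-HCHF vs NORM-CONV (31 higher) and -0.05 for HIGH-HCHF vs NORM-CONV (47 higher), beside -0.04, -0.06, 0.01 and 0.04 for all genes. Without Perirenal1789 the median was -0.14 for HIGH vs NORM and -0.07 for LOW vs NORM, and the latter was -0.24 without Perirenal1772 and -0.10 without Perirenal1770. For HIGH-HCHF vs NORM-CONV it ran from -0.15 to 0.04 over the fits that each left out 1 library. The members at an unadjusted p under 0.05 numbered 12, 19, 15, 21, 22 and 11 in the order given, beside 6.66%, 8.71%, 2.98%, 3.45%, 9.13% and 5.88% of all genes. Rank 16 (ENSOARG00000000641) had the smallest p in 3 of these contrasts. It was at 11.2 to 53.9 CPM in the 16 HCHF sheep (median 21.8) and at 11.3 to 708 CPM in the 20 CONV sheep (median 44.6), a log2 difference of -1.47 ± 0.36 (SE, adjusted p = 0.30, edgeR). Levels above 53.9 CPM were all in CONV sheep, while the lowest levels of both groups were alike.

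As a difference between the depots, the diet contrasts directly reuse the values that chose the members. They passed for no member in the edgeR fit of all 67 libraries, nor with DESeq2. EdgeR called 0% of 23294 genes in each of the 3 prenatal contrasts and in HCHF vs CONV. DESeq2 called 0.0944% for LOW vs HIGH, 1.29% for LOW vs NORM, 0.0258% for HIGH vs NORM and 0.0687% for HCHF vs CONV. The differences (SUB minus PER) had medians over the members of 0.30 for LOW vs HIGH and -0.39 for HCHF vs CONV, beside -0.20 and 0.04 for all genes. The median of the members for HCHF vs CONV was -0.18 without the sheep of Subcutaneous1770 and -0.26 without that of Perirenal1761. At an unadjusted p under 0.05 these contrasts had 8 and 17 members, beside 3.29% and 6.19% of all genes.

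The level of the set was followed in each library as the median over the members of the standardized log2(CPM + 1), in SD of the 26 pairs. In SUB, the 7 LOW-CONV sheep lay between -0.01 and 0.69 with a median of 0.45, and 6 of them between 0.43 and 0.69. The medians of the other groups were -0.08 (LOW-HCHF), -0.11 (HIGH-CONV), -0.21 (NORM-CONV), -0.37 (NORM-HCHF) and -0.38 (HIGH-HCHF). Each of these groups reached into the range of LOW-CONV, and LOW-HCHF spanned the widest range, from -1.35 to 0.97. The highest library was the NORM-CONV library Subcutaneous1770 at 1.43, with the highest level of the depot in 31 members, and the lowest the LOW-HCHF library Subcutaneous1775 at -1.35, with the lowest level in 22 members.

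**Figure D4:**
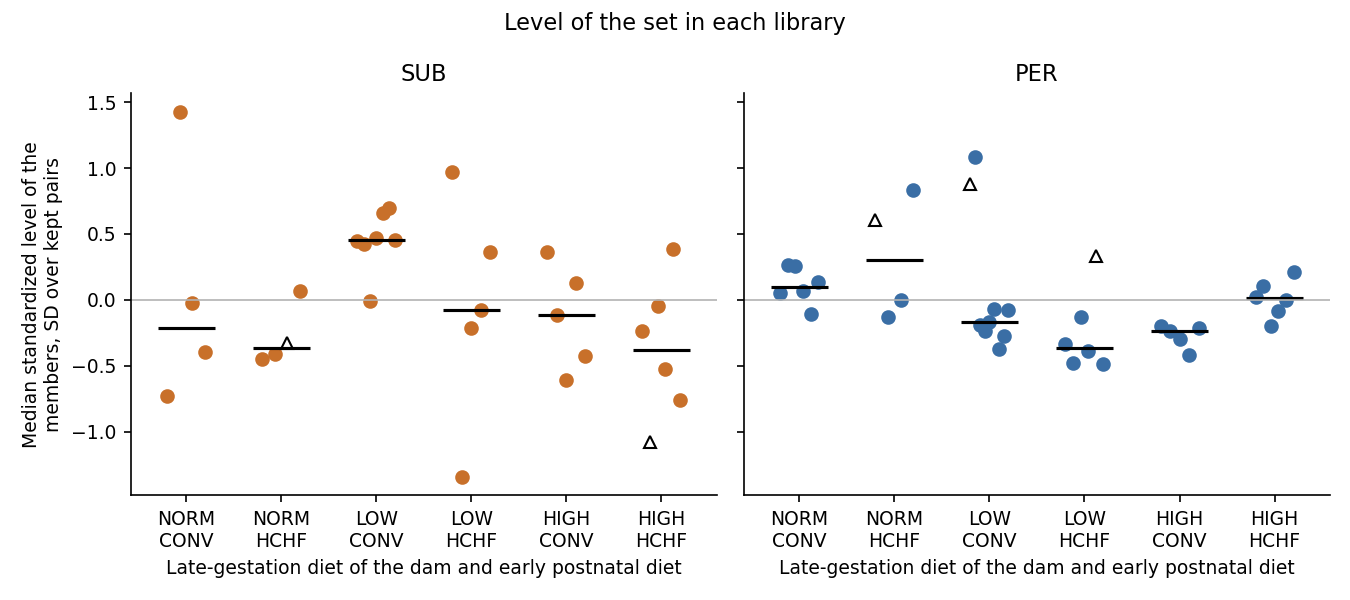
Median standardized level of the 100 members in each library (y axis, SD over the 26 pairs) by diet group (x axis), for SUB and PER; lines are group medians and open triangles libraries under 2000000 counts. In SUB 6 of the 7 LOW-CONV sheep sit between 0.43 and 0.69, and Subcutaneous1770 (1.43) and Subcutaneous1775 (-1.35) are the extremes.

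In PER the levels of the set ranged from -0.48 to 1.09. The highest was Perirenal1772 of a LOW-CONV male, with the highest level of the depot in 27 members (the shallow Perirenal1766 had it in 30). In this sheep rank 34 was at 13549 CPM in PER, where the other 35 libraries had 5.88 to 434 CPM (median 45.0), and at 9836 CPM in SUB, where the other 30 had 25.7 to 788 CPM (median 165). The same animal thus stood apart in both depots for this gene, and because of it the mean levels of rank 34 were almost equal, 602 CPM in SUB and 597 CPM in PER, although 22 of 26 pairs were higher in SUB.

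Co-variation of the members across sheep was described by Pearson's r on TMM-scaled log2(CPM + 1) over the 26 sheep of each depot. These values have no p, since the members share libraries, depth and the choice of the set. In SUB the median r over all pairs of members was 0.287, beside 0.055 over all pairs of genes at this level. Of the member pairs 26.3% had an r above 0.5 and 1.33% below -0.5, against 20.4% and 13.8% of all gene pairs. The members also varied more between sheep, with a median SD of 0.86 in SUB and 0.65 in PER, against 0.45 and 0.34 for all genes.

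The members with the highest median r to the others in SUB were those of rank 33, 91 and 40 (0.545, 0.544 and 0.539). Rank 14 and rank 15 formed the closest pair (r = 0.972), and were also the closest pair in PER (r = 0.934). Near-identical copies that share reads could not be looked up for them. The lowest r was that of rank 4 with rank 37 (-0.73). Not all members took part, as 11 had a negative median r, down to -0.35 for rank 37. PMEL (0.07) and DPT (-0.04) were close to 0.

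In PER the median r between members was 0.090, beside 0.055 for all genes, with 9.05% of the pairs above 0.5 against 13.3%. It was 0.049 without Perirenal1772. The members with the highest median r were those of rank 23, 44 and 32 (0.296, 0.275 and 0.262). The share of reads in no gene had an absolute r above 0.5 with 19.0% of the members in SUB and 9.0% in PER, against 52.3% and 41.0% of all genes at this level, and with this share regressed out the median r between members was 0.293 in SUB and 0.084 in PER.

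**Figure D5:**
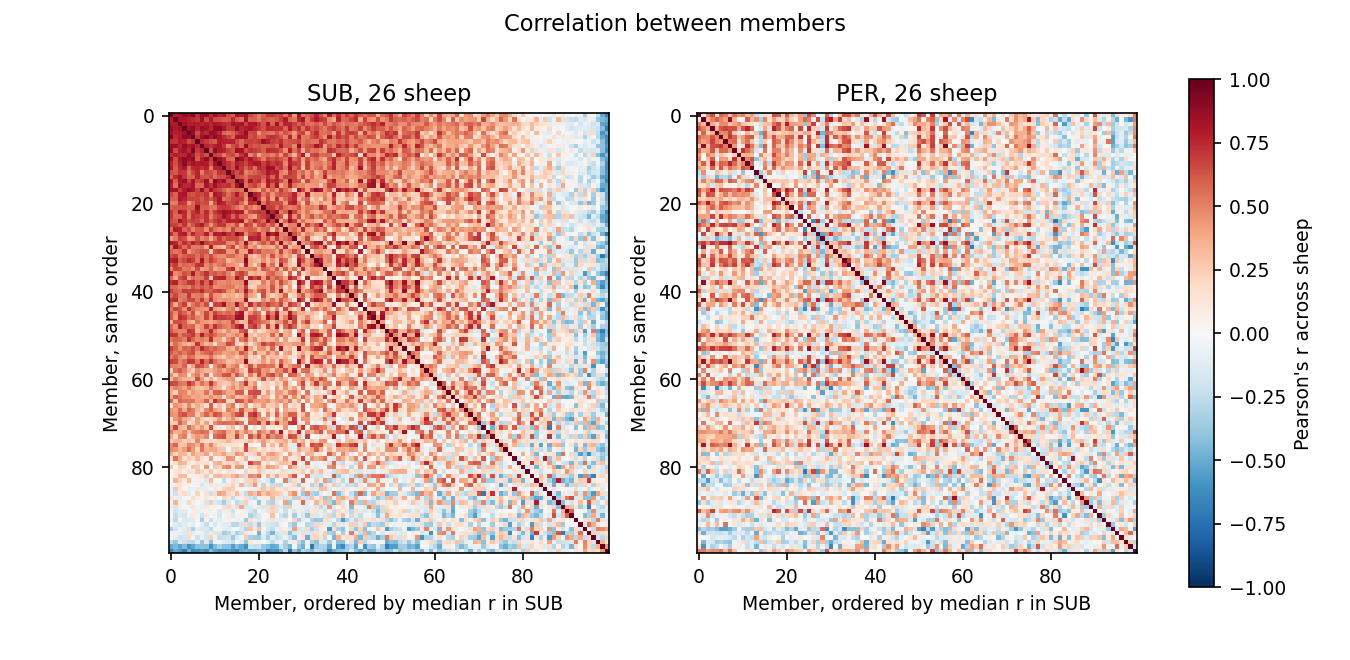
Pearson's r across 26 sheep between each pair of the 100 members in SUB and in PER (colour, -1 to 1), with the members in both panels ordered by their median r in SUB. The block of positive r in SUB (median over all pairs 0.287) is weaker in PER (0.090), and members at the end of the order have a negative median r in SUB.

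Between the depots of the same sheep, the median r of a member was 0.215, beside 0.187 for all genes at this level. An r above 0.5 was found in 12 of the 100 members, beside 12% of all genes, and a negative r in 19, beside 23.4%. With Spearman's correlation 25 members were negative, beside 16.4% of all genes. The highest were rank 69 (0.746) and rank 70 (0.671), and the lowest was PMEL (-0.37). The mean level of PMEL in the PER libraries of these pairs was 2.49 CPM, and the cause of its negative r was not tested. Without the sheep of Perirenal1772 the median was 0.098.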

How the data were processed

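RNA of SUB and PER was sequenced after ribosomal depletion with a stranded kit. Per the labels and the study's methods, the authors trimmed the read pairs (Trimmomatic 0.39), removed ribosomal reads (BWA 0.7.17-r1188), aligned the rest to the sheep genome Oar_v3.1 (STAR 2.7.3a) and counted them over exons (HTSeq 0.11.8). The strand setting of the counting is not given in the sources used here, so genes that overlap an antisense gene are uncertain. The deposited values are the authors' raw gene counts, not normalized. Entries that name no gene (62.4% to 98.1% of a SUB and 71.2% to 98.2% of a PER library) were left out of totals and tests.

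Genes that reached 1 CPM in 4 or more of a depot's libraries were tested with edgeR 4.0.16 (R 4.3.3, quasi-likelihood fit, TMM, Benjamini-Hochberg threshold 0.05) on sex, postnatal diet, prenatal diet and their pairwise interactions. In a contrast, all levels of the other factors had the same weight. All 100 members passed the filter in both depots. SEs were derived from the F statistics. The difference between depots was tested over all 67 libraries without a block. The sheep number in the sample titles pairs SUB and PER of an animal. After the model, the paired libraries of the 26 sheep correlated over genes with a median r of 0.28 (-0.29 to 0.51), and 7 of 26 were closest to their own partner. Nothing besides the sheep number separates replicates, and p-values measure the spread between these animals. Per the study the sheep were born as twins, and the prenatal diet was given to the dam. The labels do not name the dam, so any twins in the series were treated as independent animals.

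The members, the lists and the tests were chosen with earlier results of these data known. The genes named are the 10 with the largest difference, the 5 on either side of the limit, the members among the listed markers, the members with the smallest p per contrast and those with the highest and lowest correlations. Rank 2 and other members were described further after their values were seen. The reference table matched 0 identifiers, so symbols come from the 34 pairs printed in the study's supplement, and the marker and pathway lists (11 of 326 symbols matched) could not be tested as lists. The part of other cell types in any value was therefore not tested, and no sequence is shown. Alternatives were DESeq2 1.42.0, edgeR with the size factors of DESeq2, no low-count filter, an additive model, libraries of at least 2000000 counts, the no-gene share of reads as a covariate, the sheep as a block, Spearman's correlation, residuals and other settings of the rule. Dispersions from estimateDisp, and SUB without Subcutaneous1759 and Subcutaneous1770, were added after seeing the data. The scripts were tested on simulated counts.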

Additional observations from a re-analysis of the deposited data

Results flagged for a closer look

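In 60 group-wise series (the median standardized level of the set, PMEL, DPT, rank 1 and rank 2 in each of the 12 diet groups of a depot), 7 had a sheep far from the others of its group by Dixon's criterion, which chance meets in about 1 in 20 groups. In SUB of LOW-CONV, the set was at -0.0056 SD in Subcutaneous1784, below the other 6 sheep at 0.43 to 0.69. In SUB of NORM-CONV, PMEL was at 6.60 on the log2(CPM + 1) scale in Subcutaneous1782, the only male of the group, and at 1.91 to 2.56 in the 3 females.

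The other 5 are in PER, all on the log2(CPM + 1) scale, and 3 of them are in shallow libraries. ENSOARG00000020376 was at 1.91 in the LOW-HCHF library Perirenal1807 (others 0 to 0.49), and ENSOARG00000010002 at 5.31 in the LOW-CONV library Perirenal1766 (others 0 to 2.59). In the HIGH-HCHF library Perirenal1787, ENSOARG00000010002 was at 0 (others 0.80 to 1.22). DPT was at 3.18 in Perirenal1766 (others 5.41 to 6.97) and at 7.47 in the HIGH-CONV library Perirenal1788 (others 6.08 to 6.46). The part of depth in these values was not tested.

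For 4 members the sex difference between the depots was past the threshold in the fit of all 67 libraries (edgeR, adjusted p under 0.05). Of all 23294 genes, 0.124% were. This measure reuses the values that chose the members, so it is no independent evidence for any of the 4. PMEL and DPT reached the limit of 1 in 1 sex alone. As the log2 difference of males over females in SUB minus that in PER, the values were 3.87 for PMEL, 4.52 for ENSOARG00000010002, 2.97 for ENSOARG00000010394 (rank 6) and -2.13 for DPT.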

How the results depend on the processing

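Of the 152 alternative values without a left-out library for the counts of members, the members themselves and the median correlations, 148 stayed within 1.5 times the count or within 1 SD over the members. The 4 others were 63 members shared when SUB had to reach 20 CPM (63 of a list of 87), 3 members for LOW vs NORM in SUB and 1 for HCHF vs CONV in PER with DESeq2, and 10 for males vs females in PER with the no-gene share of reads as a covariate. By construction, the first removes members below 20 CPM. The cause of the others was not tested. Most of the 148 are counts of 0 members in a diet contrast that stayed at 0. A change from 100 to 76 members also lies within 1.5 times. The 148 are therefore no measure of robustness. Under the other settings of the rule 76 (males alone) to 95 (TMM) of the 100 members were kept. With that covariate, the PER sex difference reversed for PMEL (0.042, adjusted p = 0.96 in edgeR) and rank 6 (0.075, adjusted p = 0.95 in edgeR).

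Leaving out 1 library at a time gave 95 to 99 shared members, 0 to 1 members for LOW vs NORM in SUB (1 without Subcutaneous1782), 0 to 1 for LOW vs NORM in PER (1 without Perirenal1772) and for HIGH vs NORM in PER (1 without Perirenal1763), 5 to 13 for sex in SUB (5 without Subcutaneous1782), 19 to 29 for sex in PER and 2 to 4 for sex between the depots (2 without the sheep of Perirenal1761). In the fits of all libraries, 3.95%, 43.4% and 0.124% of all genes passed for sex in SUB, in PER and between the depots. The share in SUB fell without Subcutaneous1782, as given above, so nothing is read from these counts of members alone. The call of DPT in SUB was lost without Subcutaneous1761, Subcutaneous1764, Subcutaneous1768, Subcutaneous1777, Subcutaneous1782, Subcutaneous1784, Subcutaneous1789 or Subcutaneous1796, one at a time, with values from -1.81 to -1.31, and those of ranks 2 (1.69) and 6 (1.42) without Subcutaneous1782. Between the depots, DPT lost its call without any 1 of the sheep of Perirenal1761, Perirenal1764, Perirenal1769, Perirenal1777, Perirenal1789, Perirenal1792, Perirenal1796 or Perirenal1807, and rank 6 without that of Perirenal1761 or Perirenal1782. The additive model ended the calls of DPT in SUB (-1.23) and of PMEL (-0.69) and rank 6 (-0.96) in PER. The SUB calls of ranks 52 and 93 were lost in 5 and 17 of 31 such fits, and the PER calls of PMEL and DPT in 19 and 2 of 36.

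With the sheep as a replicate block, 3 members passed for sex between the depots in place of 4, beside 0.159% of 23249 genes. DPT was the one that did not pass. The block changed no other count of members. Low values in the 5 libraries under 2000000 counts rest on few reads, and at 620406 counts a gene at 1 CPM has less than 1 count.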

Other observations

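Rank 34 (ENSOARG00000003744) was singled out after its values were seen. In 27 members Perirenal1772 of a LOW-CONV male had the highest PER level of all 36 sheep, and in rank 34 its level was 301-fold the median of the other PER libraries.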
